A study of Mus musculus with 9 samples.

Results

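The 10 genes of retinoic acid signalling described here are read by all 15 probes that bear the symbols Stra8, Stra6, Rara, Rarb, Rarg, Rxra, Rxrb, Crabp1, Crabp2 and Cyp26b1, out of 25697 probes and 16593 named genes on the array. Mouse Illumina bead arrays, 9 in all, measured RNA of 3 kinds of cultured stem cell. The gPS group held 3 clonal lines of germ pluripotent stem cells sorted by GFP fluorescence, the ESC group held 2 arrays of embryonic stem cells that the labels call a duplicate, and the GSC group held 4 lines of germ stem cells that the labels call unipotent. The series title places the germ stem cells in the adult germline and names the induction of pluripotency in them as the subject. No strain, age, culture medium, retinoid treatment or reporter gene is given in the sources used here, nor is the GSC line from which any gPS line arose.

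Vitamin A enters cells as retinol and is oxidised to retinoic acid. Retinoic acid is bound in the cytosol by the CRABP proteins and in the nucleus by retinoic acid receptors (RAR), which pair with retinoid X receptors (RXR) on DNA, and enzymes of the CYP26 family break it down. In the testis, retinoic acid moves spermatogonia toward differentiation and, through Stra8, into meiosis. In pluripotent cells it is a classical signal for the exit from self-renewal.

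The RAR and RXR pair binds repeats of a short DNA half-site, so the promoters that bear on the members are shown. RefSeq promoter windows (build GRCm38.p6, 250 bases before to 50 after a transcription start) were matched for 9 of the 10 genes, in 18 windows. They were searched on both strands for the half-site AGGTCA, for its variant AGTTCA, for the variant GGGTCA and for the variant GGTTCA, and for 2 half-sites in the same orientation with a spacer of 1, 2 or 5 bases. The Stra8 promoter is shown because Stra8 is the germ cell target of the pathway, the Rarb promoter because Rarb is the receptor gene known to be induced by retinoic acid itself, and those of Rarg and Crabp1 because these genes differed between the groups. Each is the 250 bases before the start, written 5′ to 3′ on the gene's strand, with half-sites of either strand in capitals.
Stra8, chr6:34920698-34920947 (+): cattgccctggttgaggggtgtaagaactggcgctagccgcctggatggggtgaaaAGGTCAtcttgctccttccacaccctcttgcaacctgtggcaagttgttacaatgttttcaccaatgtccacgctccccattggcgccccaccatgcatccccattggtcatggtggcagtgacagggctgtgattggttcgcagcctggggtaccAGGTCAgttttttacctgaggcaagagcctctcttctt
Rarb, chr14:16575477-16575726 (-): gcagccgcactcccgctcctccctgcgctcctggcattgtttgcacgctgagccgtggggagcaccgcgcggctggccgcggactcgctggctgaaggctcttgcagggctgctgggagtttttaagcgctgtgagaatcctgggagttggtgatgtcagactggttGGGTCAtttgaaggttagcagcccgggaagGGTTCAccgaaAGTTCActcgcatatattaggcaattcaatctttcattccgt
Rarg, chr15:102257523-102257772 (-): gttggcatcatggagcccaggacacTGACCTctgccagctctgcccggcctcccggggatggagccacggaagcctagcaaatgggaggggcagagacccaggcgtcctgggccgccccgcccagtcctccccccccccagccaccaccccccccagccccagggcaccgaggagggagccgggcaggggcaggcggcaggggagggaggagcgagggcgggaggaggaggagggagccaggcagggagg
Crabp1, chr9:54764498-54764747 (+): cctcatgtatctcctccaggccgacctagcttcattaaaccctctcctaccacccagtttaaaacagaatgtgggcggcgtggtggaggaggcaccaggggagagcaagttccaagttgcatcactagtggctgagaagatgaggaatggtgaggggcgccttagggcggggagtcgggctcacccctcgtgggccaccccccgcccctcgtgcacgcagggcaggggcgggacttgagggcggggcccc
The Stra8 window held AGGTCA at 194 and at 38 bases before the start and no direct repeat. The Rarb window held the only direct repeat among the 18 windows, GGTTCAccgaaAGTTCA with a spacer of 5 bases, at chr14:16575513-16575529, beginning 53 bases before the start. The Rarg window shown held a single half-site on the opposite strand, TGACCT, at 225 bases before the start, a further Rarg window held none, and the Crabp1 window held none. At least 1 half-site was present in 7 of the 18 windows, against 43.7% of all 32851 windows of the table, and a direct repeat with spacer 5 was present in 0.0974% of all windows. A match of letters is a description and not a measured binding site.

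Signals were background-corrected, quantile-normalized and put on a log2 scale with a floor of 4, and a probe counted as detected on an array at a detection p under 0.01 against that array's negative controls. The median raw signal lay between 83.6 and 101 on the 9 arrays, and 9871 to 11813 probes were detected, in all 39.5% ± 1.71 of the probes in gPS (SD, n = 3), 39.2% ± 0.688 in ESC (SD, n = 2) and 44.0% ± 1.55 in GSC (SD, n = 4). The arrays of GSC 1 and GSC 3 were nearly alike, with a correlation of 0.994 across probes and an SD of their difference of 0.22, against 0.986 and 0.34 for the ESC duplicate. Comparisons with GSC were therefore repeated with GSC 1 and GSC 3 averaged to 1 sample and with both left out, and the value is given where this ended a call or moved a count by over 1.5 times. The labels do not say that the ESC arrays came from separate cultures, so p-values measure only the spread between these arrays, part of which may be technical. Of 10 pluripotent cell markers all were detected in gPS and in ESC, and 8 were detected on at least 1 GSC array. Their summed signal was 36427 to 43927 in gPS, 36870 to 38110 in ESC and 1415 to 3077 in GSC. Germ cell markers summed to 430 to 1761 in gPS, 1016 to 1068 in ESC and 13278 to 17311 in GSC. Of these 11 markers, 10 were detected in GSC, 4 in gPS and 4 in ESC.

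Of the 15 probes, 5 were detected on all 9 arrays, and 9 were detected on at least 2 arrays and tested, so that 7 of the 10 genes had a test. Stra6, Rarb and Cyp26b1 had none. The panels of signal by array show every probe.

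**Figure D1:**
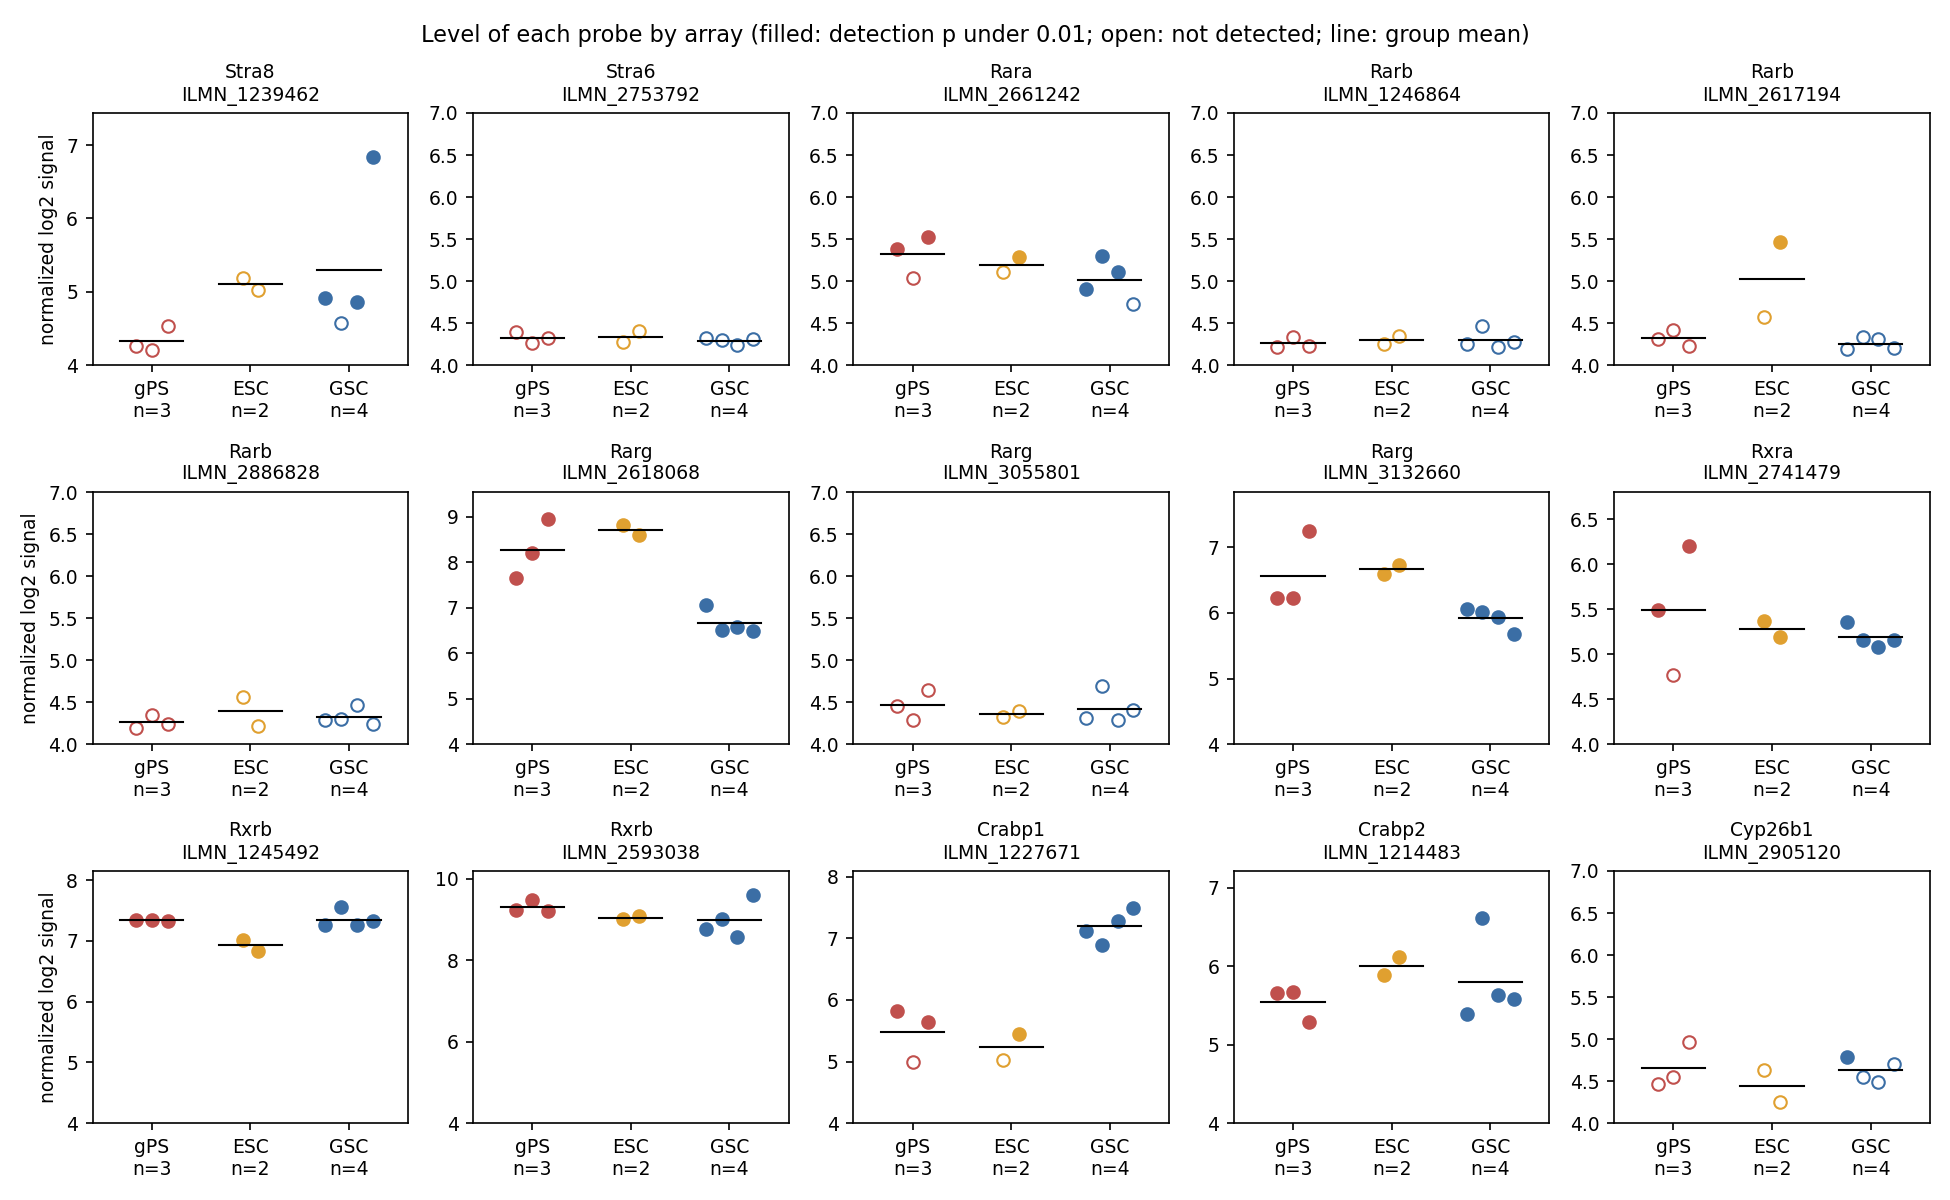
Normalized log2 signal of the 15 probes (1 panel each, vertical axis from 4, the floor of the scale, with a top that differs between panels) on the 3 gPS, 2 ESC and 4 GSC arrays. Filled points were detected, open points were not, and the line is the group mean. Rarg ILMN_2618068 sits at 7.65 or more in gPS and ESC and at 7.06 or less in GSC, Crabp1 runs the other way, and Stra8 stands out on the array of GSC 4.

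Stra8, which germ cells need to begin meiosis, was carried mainly by 1 germ stem cell line. Its log2 level was 4.26, 4.20 and 4.53 in gPS 1 to 3, 5.19 and 5.03 in ESC 1 and 2, and 4.91, 4.58, 4.86 and 6.84 in GSC 1 to 4. The array of GSC 4 stood about 2 log2 units above the other GSC arrays (2.05 above their mean), every gPS array lay below every GSC array, and the ESC arrays lay within the GSC range. Stra8 was detected on GSC 1, GSC 3 and GSC 4 and missed detection on GSC 2 (detection p 0.0702), on all gPS arrays (detection p 0.107 to 0.927) and narrowly on ESC 1 and ESC 2 (detection p 0.010025 and 0.0150). Before any normalization its raw signal was 78.0, 74.6 and 84.1 in gPS, 91.5 and 92.6 in ESC, and 95.8, 91.3, 104 and 246 in GSC. The raw signal thus set GSC 4 apart in the same way, and the other arrays were close to the array background.

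In gPS the change of Stra8 from GSC was -0.97 on the log2 scale (SE 0.44, 95% interval -1.94 to 0.01), which did not pass (adjusted p = 0.0853). The wide interval comes with the spread among GSC lines (5.30 ± 1.04, SD, n = 4), against 4.33 ± 0.18 in gPS (SD, n = 3). Without GSC 4 the difference was smaller, -0.45, and passed (adjusted p = 0.0467), without GSC 2 it was -1.21 (adjusted p = 0.0490), and in the authors' processed values it was -2.47 (adjusted p = 0.0306). With GSC 1 and GSC 3 averaged it was -1.10 (adjusted p = 0.0801), and with both left out it was -1.38 (adjusted p = 0.0586). Because no gPS array detected Stra8, the data give only a bound, at least 1.11-fold higher in GSC, in which each undetected array of the dimmer group is set to its lowest detected signal. That bound rests on GSC 4. Stra8 in GSC 1, GSC 2 and GSC 3 lay below the lowest detected signal of every gPS array. For those lines the data therefore give no bound of a higher level than in gPS, and the test without GSC 4 compared signals under these limits. In ESC Stra8 was 5.11 ± 0.12 (SD, n = 2), a difference from GSC of -0.19 (95% interval -1.29 to 0.92, adjusted p = 0.770). Between gPS and ESC the difference was -0.78 (95% interval -1.95 to 0.38, adjusted p = 0.511), with Stra8 undetected in both. In bulk RNA, fewer cells with a transcript and less of it per cell cannot be told apart, for Stra8 and for every gene below.

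The Stra8 level of GSC 4 was set beside the other genes of spermatogonial differentiation and meiosis in the same lines, a comparison chosen after its value was seen. Of the 19 tested genes on this list, 10 were highest in GSC 4, 5 in GSC 3, 4 in GSC 2 and 0 in GSC 1, and 5 were lowest in GSC 4. Over all 8750 tested named genes, 35.0% were highest and 32.3% lowest in GSC 4, so GSC 4 also stood at the edge for genes at large. Prdm9, which places meiotic recombination sites, was 1.01 above the mean of the other 3 lines in GSC 4. Msh5, needed for meiotic crossovers, was 0.92 above it, the meiotic cohesin genes Smc1b and Stag3 were 0.85 and 0.78 above it, and Rec8, another meiotic cohesin, was 0.56 above it. On the other side, Ccnd2, a D-type cyclin of cycling spermatogonia, lay at -1.19 from that mean, and Nanos2, an RNA-binding protein of undifferentiated spermatogonia, at -0.81. Prdm9 was at 5.03, 4.98, 4.85 and 5.97 in GSC 1 to 4, and Msh5 at 4.99, 4.93, 5.01 and 5.90. In GSC 1 to 3 both lay close to the lowest detected signals of these arrays (4.75, 4.86 and 4.83). The median of the 19 genes was 0.25 above the other lines and that of all genes 0.01 above them. In GSC 4, 32 of the 8750 genes (0.366%) stood 1.5 or more above the other lines, and Stra8 was one of them. GSC 4 also had the lowest summed signal among the GSC lines for germ cell markers (13278), for pluripotent cell markers (1415) and for fibroblast and feeder cell markers (2972, against 7497, 3603 and 6189 in GSC 1 to 3). It had the highest summed signal among them for Sertoli cell markers (546, against 436, 513 and 442 in GSC 1 to 3). The part of these in the Stra8 level was not tested.

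**Figure D2:**
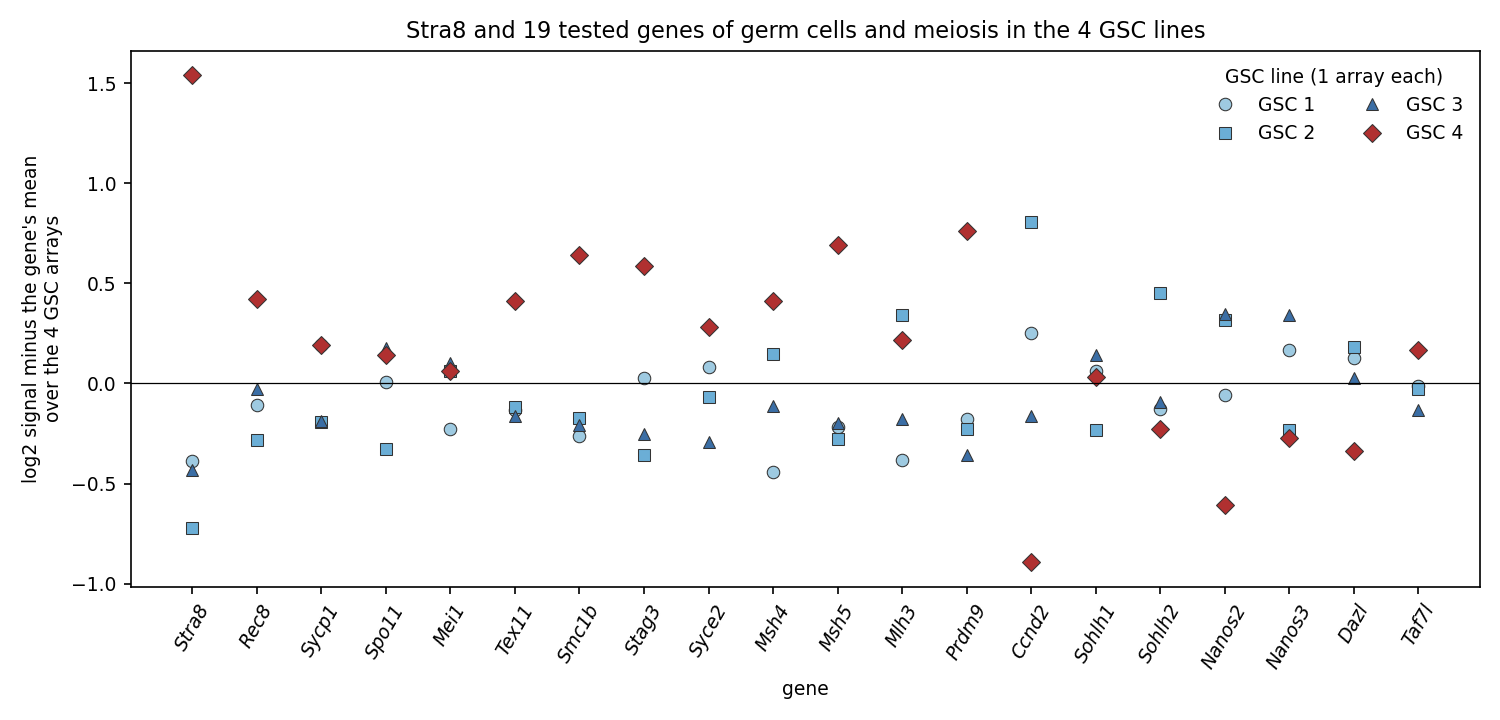
Log2 signal of Stra8 and of the 19 tested genes of spermatogonial differentiation and meiosis (horizontal axis) in each of the 4 GSC lines, minus the gene's mean over these lines (vertical axis), with 1 symbol per line. The GSC 4 symbol is highest for Stra8 and for 10 of the 19 genes and lowest for 5, among them Ccnd2 and Nanos2.

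The genes whose pattern over the 9 arrays was most like that of Stra8, by the root mean square difference of log2 values after each gene's own mean was removed, were Zbtb17 (0.205), Fcho1 (0.325), Faap100 (0.331), H3c7 (0.344) and Fbxo2 (0.345), among 8615 genes searched with a median of 0.858. Each had its highest value in GSC 4, which the choice itself favoured, because the Stra8 pattern varied mainly through that array. Zbtb17, for example, was 8.45, 8.36 and 8.44 in gPS, 8.90 and 8.89 in ESC, and 8.77, 8.56, 8.56 and 10.36 in GSC.

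The uptake gene Stra6, which encodes the membrane receptor that takes retinol from its plasma carrier, was not detected on any array. Its log2 level lay between 4.24 and 4.41, close to the floor of the scale, and no group stood apart. An undetected probe gives an upper limit on the signal of that probe and does not show that the gene is silent.

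Crabp1, a cytosolic retinoic acid binding protein, was the member that fell. Its log2 level was 5.82, 4.99 and 5.64 in gPS 1 to 3, 5.03 and 5.45 in ESC 1 and 2, and 7.12, 6.89, 7.28 and 7.49 in GSC 1 to 4. All GSC arrays lay above all gPS and ESC arrays, by at least 1 log2 unit, while gPS and ESC overlapped. Crabp1 was detected on all 4 GSC arrays, on 2 of 3 gPS arrays and on 1 of 2 ESC arrays. The mean was 5.48 ± 0.43 in gPS (SD, n = 3) and 7.19 ± 0.26 in GSC (SD, n = 4), a change of -1.71 (SE 0.23, adjusted p = 0.000112), or 3.27-fold higher in GSC. In ESC it was 5.24 ± 0.30 (SD, n = 2), a change from GSC of -1.95 (SE 0.26, adjusted p = 0.00012), or 3.87-fold higher in GSC. The undetected arrays, gPS 2 and ESC 1, entered these folds at their normalized signal, so the folds are not bounds. Both calls held in all 21 alternative settings, with an adjusted p of at most 0.00208 for gPS and 0.00392 for ESC, those with GSC 1 and GSC 3 averaged or left out included. The size of the change depended on the background correction. It was -0.91 in gPS and -1.01 in ESC with no background correction, and -2.26 in gPS and -2.65 in ESC in the authors' processed values. Between gPS and ESC the difference was 0.24 (95% interval -0.37 to 0.86, adjusted p = 0.732), an interval that does not show the levels to be alike.

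Across arrays, the genes closest to Crabp1 were Vamp4 (root mean square difference 0.156), Ppp1r26, Mpped1, Amigo2 and Eva1b (0.215), against a median of 0.958 over the genes searched. Fibroblast and feeder cells can also express Crabp1. Their markers summed to 1914 to 3805 in gPS, 2983 to 3349 in ESC and 2972 to 7497 in GSC, with 11 of 19 markers detected in gPS, 11 in ESC and 15 in GSC, and with Pdgfrb, Postn and Fap undetected on all 9 arrays. Within GSC 1 to 4 Crabp1 was at 7.12, 6.89, 7.28 and 7.49, beside sums of 7497, 3603, 6189 and 2972. The share of such cells in the difference was not tested.

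Crabp2, which carries retinoic acid to its receptors in the nucleus, was detected on every array. Its log2 level was 5.66, 5.67 and 5.29 in gPS, 5.89 and 6.12 in ESC, and 5.39, 6.61, 5.64 and 5.58 in GSC. GSC 2 was the highest of all arrays and the remaining GSC lines lay within the gPS range, so gPS and ESC each overlapped with GSC, while both ESC arrays lay above all gPS arrays. The difference of gPS from GSC was -0.27 (95% interval -0.86 to 0.33, adjusted p = 0.428) and that of ESC from GSC was 0.20 (95% interval -0.47 to 0.88, adjusted p = 0.602). Scaling the arrays to a common median gave -0.69 for gPS (adjusted p = 0.0442). That scaling moved the median of all probes to -0.36 for gPS and to -0.39 for ESC, against -0.03 and -0.05 with quantile normalization, so it shifts all changes against GSC downward. The interval for gPS against ESC was -1.18 to 0.25 (adjusted p = 0.524).

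Among the receptors, Rarg rose. Its product, RAR gamma, is a retinoic acid receptor found in embryonic stem cells and, in the mouse testis, in spermatogonia. The probe ILMN_2618068 had log2 levels of 7.65, 8.20 and 8.94 in gPS 1 to 3, 8.83 and 8.59 in ESC 1 and 2, and 7.06, 6.50, 6.57 and 6.49 in GSC 1 to 4, and was detected on all arrays. All gPS and ESC arrays lay above all GSC arrays, gPS 1 and GSC 1 came closest, and the ESC arrays lay within the gPS range. Rarg was 8.26 ± 0.65 in gPS (SD, n = 3) and 6.65 ± 0.27 in GSC (SD, n = 4), a change of 1.61 (SE 0.28, 3.05-fold, adjusted p = 0.00058). In ESC it was 8.71 ± 0.17 (SD, n = 2), a change from GSC of 2.06 (SE 0.31, 4.16-fold, adjusted p = 0.000284). Both calls held in all 22 alternative settings. With GSC 1 and GSC 3 both left out the changes were 1.77 for gPS (adjusted p = 0.0028) and 2.22 for ESC (adjusted p = 0.00146). Between gPS and ESC the difference was -0.45 (95% interval -1.18 to 0.28, adjusted p = 0.563).

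The other Rarg probes gave weaker readings. The probe ILMN_3132660 was at 6.23, 6.23 and 7.24 in gPS, 6.59 and 6.74 in ESC, and 6.05, 6.02, 5.94 and 5.68 in GSC. The groups did not overlap with GSC, but gPS 1 and gPS 2 lay just above it and gPS 3 lay 1 unit higher. Its change was 0.64 in gPS (SE 0.25, adjusted p = 0.0450) and 0.74 in ESC (SE 0.28, adjusted p = 0.0436). These calls were fragile: they were lost in 18 of 21 alternatives for gPS and in 16 of 21 for ESC. Without gPS 3 the gPS change was 0.30 (adjusted p = 0.173), without GSC 4 it was 0.56 (adjusted p = 0.0957), with median scaling it was 0.14 (adjusted p = 0.642), and with GSC 1 and GSC 3 averaged it was 0.67 (adjusted p = 0.0683) for gPS and 0.76 (adjusted p = 0.0640) for ESC. With both left out it was 0.72 for gPS (adjusted p = 0.101) and 0.81 for ESC (adjusted p = 0.0923). With median scaling the ESC change was 0.21 (adjusted p = 0.532). The third Rarg probe, ILMN_3055801, was undetected on all arrays, with levels from 4.28 to 4.69. The genes most like Rarg across arrays were Nt5e (root mean square difference 0.192), Cttn, Klf3, Tbc1d9 and Nampt (0.258), against a median of 1.07.

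Rara, which encodes RAR alpha, was close to background. It was at 5.39, 5.04 and 5.53 in gPS, 5.11 and 5.29 in ESC, and 4.90, 5.30, 5.10 and 4.73 in GSC, detected on 2 of 3, 1 of 2 and 3 of 4 arrays of these groups. The groups overlapped. The difference was 0.31 for gPS against GSC (95% interval -0.11 to 0.72, adjusted p = 0.187), 0.19 for ESC against GSC (95% interval -0.28 to 0.66, adjusted p = 0.479) and 0.12 for gPS against ESC (adjusted p = 0.856).

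Rarb, which encodes RAR beta and is the textbook target of retinoic acid through the repeat printed above, gave almost no signal. None of its 3 probes was detected on a gPS or GSC array, and 1 probe, ILMN_2617194, was detected on ESC 2 at 5.47, with 4.57 on ESC 1. Its levels were 4.22 to 4.41 in gPS and 4.19 to 4.33 in GSC. The other Rarb probes stayed between 4.19 and 4.56 on all arrays. The gene could not be tested, and the ESC signal rests on 1 array.

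The RXR partners were measured in all groups. Rxra was at 5.49, 4.77 and 6.21 in gPS, 5.37 and 5.19 in ESC, and 5.36, 5.16, 5.08 and 5.16 in GSC, and missed detection on gPS 2 alone. The gPS lines spread over more than 1 log2 unit on both sides of the GSC lines. The difference from GSC was 0.30 in gPS (95% interval -0.31 to 0.91, adjusted p = 0.379) and 0.09 in ESC (adjusted p = 0.822). Without gPS 2 the gPS difference was 0.66 (adjusted p = 0.0314), so that this line decides whether the test passes.

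Rxrb was read by 2 probes, both detected on all arrays. On ILMN_1245492 it was at 7.35, 7.34 and 7.32 in gPS, 7.02 and 6.83 in ESC, and 7.26, 7.55, 7.27 and 7.33 in GSC. The ESC arrays lay below all others, and the gPS lines lay within the GSC range. The ESC difference from GSC was -0.43 (SE 0.17, 95% interval -0.80 to -0.05) and missed the threshold (adjusted p = 0.0527). It passed in 5 of 21 alternatives, for example with no detection filter (adjusted p = 0.0146) and with median scaling (-1.01, adjusted p = 0.000796). For gPS against GSC the difference was -0.01 (95% interval -0.34 to 0.32, adjusted p = 0.959), or -0.54 with median scaling (adjusted p = 0.0145), and for gPS against ESC it was 0.42 (95% interval 0.02 to 0.81, adjusted p = 0.284). On ILMN_2593038 Rxrb was at 9.25, 9.48 and 9.21 in gPS, 9.02 and 9.08 in ESC, and 8.77, 9.02, 8.56 and 9.59 in GSC. Here GSC 4 was the highest array and GSC 3 the lowest, and no difference passed, at 0.33 for gPS against GSC (adjusted p = 0.251), 0.06 for ESC against GSC (adjusted p = 0.855) and 0.26 for gPS against ESC (adjusted p = 0.700). Without GSC 4 the gPS difference on this probe was 0.53 (adjusted p = 0.0270). The Rxrb probes thus differed in which arrays stood low, ESC on one and part of the GSC lines on the other.

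Cyp26b1, the enzyme that clears retinoic acid and in the fetal mouse testis keeps germ cells out of meiosis, was detected on GSC 1 alone, at 4.78. It was at 4.47, 4.55 and 4.97 in gPS, 4.64 and 4.25 in ESC, and 4.78, 4.55, 4.49 and 4.71 in GSC. The highest value, on gPS 3, missed detection, and the probe was not tested.

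By count, 2 probes were higher, 1 was lower and 6 did not pass in gPS against GSC, or 33.3% called, where 54.7% of all 12695 tested probes were called. ESC against GSC gave the same counts, where 53.3% of all tested probes were called. By direction, 25.8% of all tested probes were higher and 28.9% lower in gPS, and 25.5% were higher and 27.7% lower in ESC. Neither share of the members exceeded that of probes at large, and the comparisons share the GSC arrays, so they are not independent. In gPS against ESC none of the 9 passed in limma's moderated test, where 1.13% of all tested probes did (0.457% higher and 0.677% lower). At an unadjusted p under 0.05 that comparison had 1, the Rxrb probe ILMN_1245492. The chart of changes with their intervals shows the 3 comparisons side by side.

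**Figure D3:**
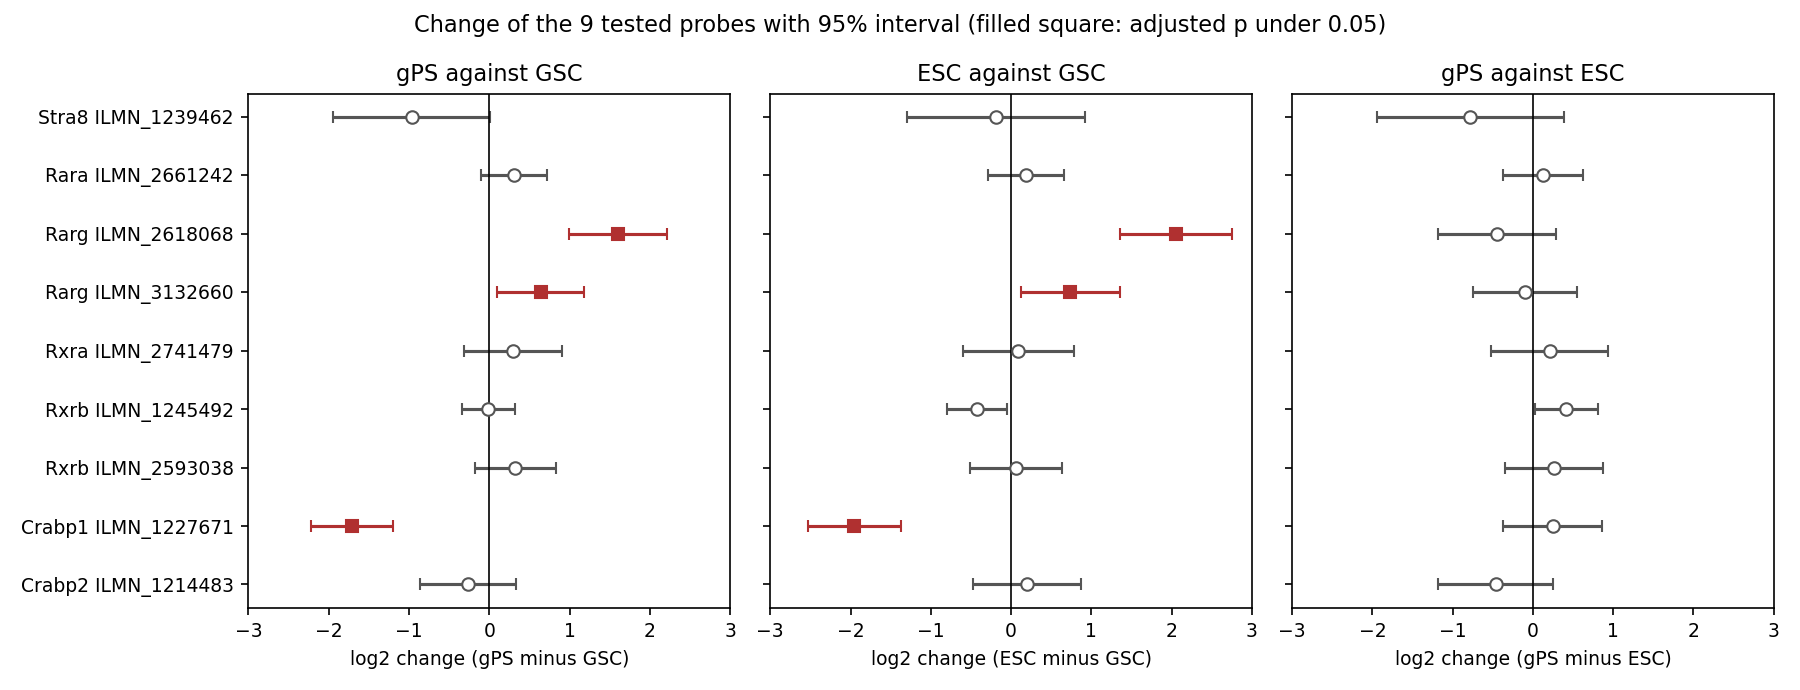
Log2 change of the 9 tested probes (rows) with its 95% interval in gPS against GSC, ESC against GSC and gPS against ESC (panels). Filled squares passed at an adjusted p under 0.05: both Rarg probes above 0 and Crabp1 below 0 in the comparisons with GSC, and none in gPS against ESC.

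Genes upstream of the receptors were read from a list of 28 genes for retinoid uptake, storage and retinoic acid synthesis, of which 26 were on the array and 9 were tested. In gPS against GSC 4 rose, 2 fell and 3 did not pass (median change -0.00, against -0.07 over all 8750 tested named genes, of which 56% were called, 25.2% higher and 30.8% lower). In ESC against GSC 4 rose, 4 fell and 1 did not pass (median 0.07, against -0.11 over all genes, of which 54.3% were called, 24.6% higher and 29.7% lower). With GSC 1 and GSC 3 averaged 1 fell in gPS, and with both left out 1 fell in gPS and 2 fell in ESC. Median scaling turned the split over all genes toward lower calls, 16.1% higher and 42.8% lower in gPS, and 15.5% higher and 41.4% lower in ESC. Dhrs4, a retinal reductase, was undetected in GSC and at least 3.20-fold higher in gPS (6.53 ± 0.25 in gPS, n = 3, 4.49 ± 0.16 in GSC, n = 4, SD). In ESC Dhrs4 was at least 1.99-fold higher. Rbp7, a cellular retinol binding protein, was also undetected in GSC with a bound of at least 2.59-fold higher in gPS and of at least 2.16-fold higher in ESC. Both Dhrs4 and Rbp7 were detected on every gPS and ESC array, so they entered the test through these groups alone. For such genes a rise was nearly fixed in advance. Adh5, an alcohol dehydrogenase best known for removing formaldehyde, was 1.79 higher in ESC than in GSC (SE 0.18) and 1.38 higher in gPS (SE 0.16). Rdh14, a retinol dehydrogenase detected on all arrays, fell by 1.15 on the log2 scale in gPS and fell by 1.65 in ESC. Retsat, which saturates retinol, fell by 1.33 in ESC (SE 0.32, adjusted p = 0.0047, or 0.0557 without ESC 1).

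Of Aldh1a1, Aldh1a2 and Aldh1a3, the enzymes that make retinoic acid from retinal, Aldh1a2 alone had a detected probe. That probe, ILMN_2630749, was at 4.65, 4.48 and 4.65 in gPS, 4.53 and 4.57 in ESC, and 4.82, 5.12, 5.02 and 4.99 in GSC. It was detected on the 4 GSC arrays and on none of the others, so it entered the test through GSC alone. Its GSC mean lay below the lowest detected signal of every gPS and ESC array, so no bound of a higher level in GSC could be given. The lowest detected signals of the GSC arrays were themselves lower than those of the gPS and ESC arrays. The part of this in the detection on GSC alone was not tested. The change was -0.39 in gPS (SE 0.15, adjusted p = 0.0429), and leaving out any of GSC 2, GSC 3, GSC 4 or a single gPS or ESC array ended the call (adjusted p 0.0512 to 0.118). So did averaging GSC 1 and GSC 3 (adjusted p = 0.0624) and leaving both out (adjusted p = 0.0883). The ESC change of -0.44 was likewise not called with them averaged (adjusted p = 0.0643) or left out (adjusted p = 0.0882). A further Aldh1a2 probe was undetected throughout, as were Aldh1a1, Aldh1a3, Rdh10, Dhrs3 and Lrat, which act in the same steps of synthesis and storage. The best known clearing enzyme, Cyp26a1, which retinoic acid induces, was also undetected on all 9 arrays, at 4.25 to 4.47. Of 7 other clearance and receptor genes, 6 were on the array and 1 was tested, Cyp2s1, a cytochrome that can oxidise retinoic acid. It was 1.18 higher in gPS (SE 0.28, adjusted p = 0.0043, or 0.0559 with median scaling) and 1.58 higher in ESC (SE 0.32) than in GSC. Rxrg, the third RXR gene, was detected on gPS 3 alone, at 5.28.

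Nuclear receptor coregulators, which receptors recruit to switch genes on or off, moved in both directions, and no more often than genes at large. Of 22 genes 18 were on the array and 15 were tested. In gPS against GSC 3 rose, 4 fell and 8 did not pass (median -0.18, against -0.07 over all genes, of which 56% were called). In ESC against GSC 5 rose, 3 fell and 7 did not pass (median -0.07, against -0.11 over all genes, of which 54.3% were called), and 2 rose in ESC with GSC 1 and GSC 3 averaged or left out. Pml, a nuclear body protein known as the fusion partner of RAR alpha in human leukaemia, was 3.67 higher in gPS and 3.15 higher in ESC than in GSC. Carm1, an arginine methyltransferase that acts as a coactivator, was 1.91 higher in gPS and 1.46 higher in ESC. Med1, the Mediator subunit that binds nuclear receptors, fell by 1.33 in gPS and fell by 1.41 in ESC. Ncoa6, a receptor coactivator, fell by 0.91 in gPS, where it was detected on 2 of 3 arrays, and fell by 0.65 in ESC. The ESC call was lost without ESC 1 (adjusted p = 0.152), without GSC 1 (adjusted p = 0.0507), with GSC 1 and GSC 3 left out (adjusted p = 0.102) and with the ESC arrays averaged (adjusted p = 0.0888). With median scaling 7 of the 15 coregulators fell in each comparison, where 42.8% of all genes fell in gPS and 41.4% in ESC.

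**Figure D4:**
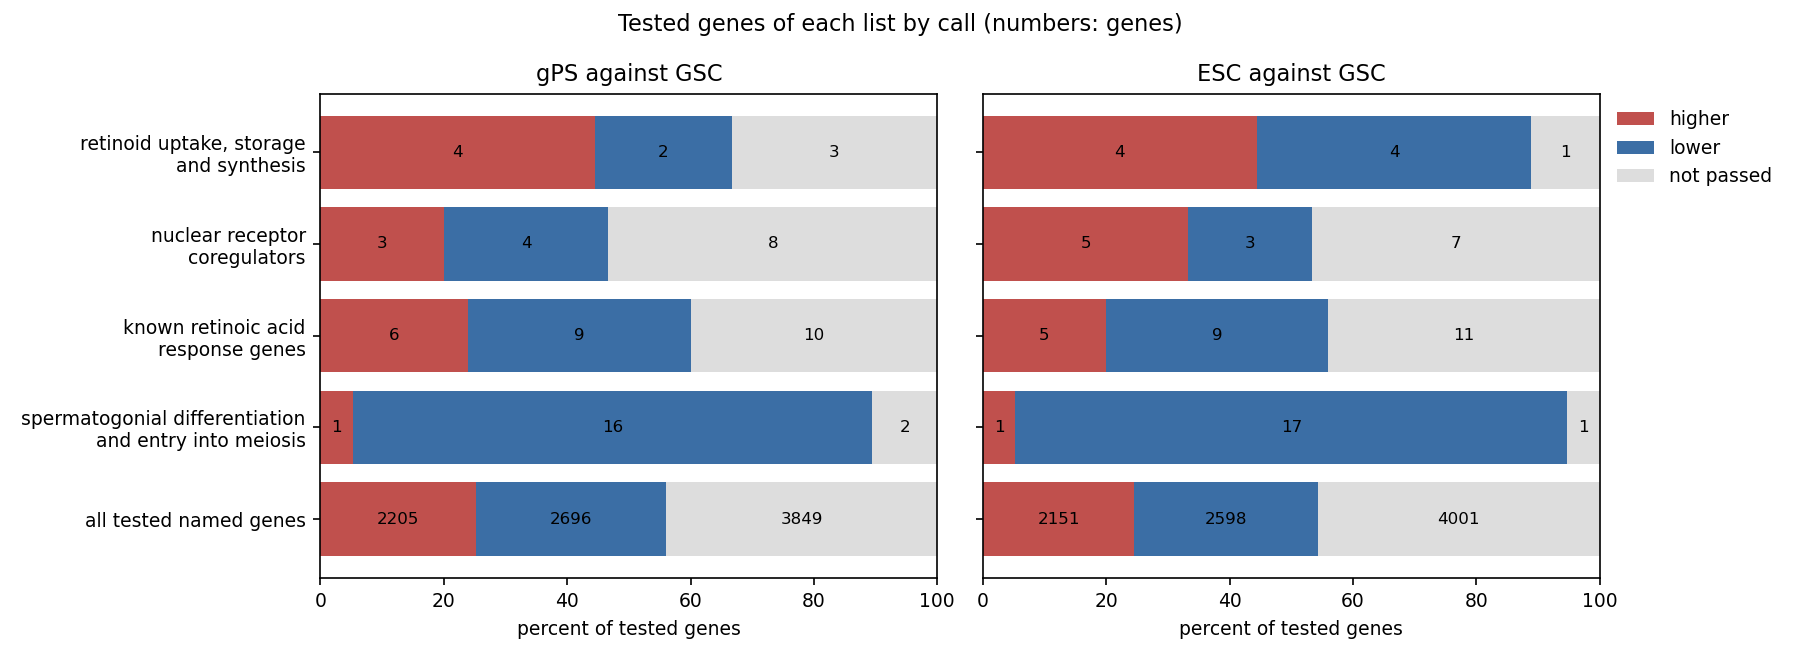
Percent of the tested genes of 4 lists, and of all tested named genes, that were higher, lower or not passed (adjusted p under 0.05) in gPS against GSC and in ESC against GSC, with the number of genes printed in each segment. The synthesis, coregulator and response lists hold calls in both directions. The spermatogonial and meiosis list has 16 of 19 genes lower in gPS and 17 of 19 lower in ESC, beside 30.8% and 29.7% of all tested named genes. Some genes, Dazl and Sohlh1 among them, passed the detection filter only through the group where they are high. For these the direction was nearly fixed in advance.

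Genes known to respond to retinoic acid in other settings moved in both directions. Of 49 genes 37 were on the array and 25 were tested: 6 rose, 9 fell and 10 did not pass in gPS against GSC (median -0.33, against -0.07 over all genes), and 5 rose, 9 fell and 11 did not pass in ESC against GSC (median -0.18, against -0.11). These shares are near those of all genes, of which 56% were called in gPS and 54.3% in ESC. Lefty1, a Nodal inhibitor first isolated as a gene stimulated by retinoic acid, was detected on 1 of 4 GSC arrays, and its level over GSC, by the same kind of bound, was at least 105-fold higher for gPS and at least 47.6-fold higher for ESC. It is also on the list of pluripotent cell markers, of which 9 of 10 were higher in gPS and 10 of 10 in ESC. Lamc1, a laminin chain, was 3.57 higher in gPS and 3.55 higher in ESC. Cdx1, a homeobox gene of the early embryo, was undetected in GSC, at least 7.59-fold higher in gPS and at least 8.77-fold higher in ESC. On the other side, Ret, the GDNF receptor kinase that maintains spermatogonial stem cells, was at least 17.0-fold higher in GSC than in gPS and at least 16.8-fold higher in GSC than in ESC. Cdx1 entered the test through gPS and ESC alone, and Ret through GSC alone. For such genes the direction was nearly fixed in advance. Ets1, a transcription factor, fell by 3.35 in gPS, and was at least 9.63-fold higher in GSC than in ESC, where it was detected on 1 of 2 arrays. The list therefore also holds genes known as markers of one of the cell types compared.

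Most tested genes of spermatogonial differentiation and entry into meiosis fell. Of 29 genes on this list, which act before, beside and after Stra8, 25 were on the array and 19 were tested. In gPS against GSC 1 rose, 16 fell and 2 did not pass (median -1.76, against -0.07 over all genes). In ESC against GSC 1 rose, 17 fell and 1 did not pass (median -2.00, against -0.11). Over all tested named genes, 30.8% were lower in gPS and 29.7% in ESC. When restricted to probes detected on all 9 arrays, 3 genes fell in each comparison, because most of the others were not detected in gPS or ESC. Genes such as Dazl and Sohlh1, detected on the 4 GSC arrays and on no other, entered the test through GSC alone. For such genes a fall was nearly fixed in advance. Dazl, a germ cell RNA-binding protein, was at least 148-fold higher in GSC than in gPS and at least 146-fold higher in GSC than in ESC. Sohlh1, a transcription factor of early spermatogonia, was at least 97.9-fold higher in GSC than in ESC, and was undetected in gPS as well. Taf7l, a germ cell paralogue of a general transcription factor subunit, was at least 106-fold higher in GSC than in gPS, where it was detected on 1 of 3 arrays. Against ESC, where 1 of 2 arrays detected Taf7l, the bound was at least 107-fold. Several of these, Dazl and Sohlh1 among them, are also on the germ cell marker list.

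Rec8, a meiotic cohesin whose expression in germ cells responds to retinoic acid, was at 6.71, 6.80 and 7.07 in gPS, 6.38 and 6.27 in ESC, and 8.21, 8.04, 8.29 and 8.74 in GSC. It was detected on all arrays, with every GSC array above the rest. The change was -1.46 in gPS (SE 0.19, adjusted p = 8.86e-05) and -2.00 in ESC (SE 0.22, adjusted p = 2.78e-05). Mlh3, a mismatch repair protein used in meiosis and in other cells, was the one that rose, by 1.05 in gPS and 0.96 in ESC, calls that median scaling ended (adjusted p = 0.0836 for gPS and 0.252 for ESC). Leaving out GSC 1 and GSC 3 also ended the ESC call (0.68, adjusted p = 0.0577). Sycp3, a structural protein of meiotic chromosomes, was undetected on all 9 arrays, at 4.18 to 4.30. In gPS against ESC no gene of these lists passed in limma's moderated test, where 1.05% of all tested named genes did (0.446% higher and 0.606% lower). At an unadjusted p under 0.05 there were 3 in the synthesis list, 0 in the clearance list, 2 among the coregulators, 3 among the response genes and 3 in the meiosis list. Lefty1 was 1.15 higher in gPS than in ESC and missed the threshold (adjusted p = 0.0560), and it passed in 4 alternatives, for example without gPS 1 (adjusted p = 0.0314).

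Markers of the somatic testis cells did not move together. Leydig and peritubular cell markers summed to 104 to 129 in gPS, 90.1 to 90.6 in ESC and 41.9 to 61.9 in GSC. Of the 10 on the array, 2 were detected in gPS, 2 in ESC and 2 in GSC. Star, Cyp17a1, Hsd3b1, Hsd3b6, Insl3, Myh11 and Cnn1 were undetected on all 9 arrays, so these sums lie near background. Of the 2 tested, Des was higher in both comparisons, at 6.05 in gPS, 5.74 in ESC and 4.68 in GSC, and Ptch1 passed in neither. Sertoli cell markers, from a cell that supplies retinoic acid to germ cells in the testis, summed to 642 to 1375 in gPS, 2698 to 3087 in ESC and 436 to 546 in GSC, with Sox9, Amh, Gata1, Fshr and Shbg undetected on all 9 arrays. Of the 13 Sertoli markers on the array, 5 were detected in gPS, 4 in ESC and 6 in GSC. Of the 6 tested, 3 were higher and 2 lower in gPS than in GSC, and 2 were higher and 2 lower in ESC than in GSC. Those lower were Wt1, at 5.72 in gPS, 5.67 in ESC and 8.41 in GSC, where all 4 arrays detected it, and Cldn11, undetected in gPS and ESC and detected on 3 of 4 GSC arrays. Aard and Rhox5 were higher in both, with Rhox5 undetected in GSC. Aard was at 8.76 in gPS, 9.92 in ESC and 5.99 in GSC, and Rhox5 was at 7.57 in gPS and 10.82 in ESC. The Sertoli marker sum in ESC therefore rested largely on these genes. These markers were named after their values were seen, and the part of such cells in the results was not tested.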

How the data were processed

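RNA of 3 gPS lines, 2 ESC arrays and 4 GSC lines was hybridized to 1 mouse Illumina bead array each. Per the labels' protocols, biotinylated cRNA was made from total RNA. The authors deposited a raw intensity for every probe, not normalized between arrays, and, per the file headers, a detection p-value beside each. BeadStudio 3.2, RMA and lumi are named in the submitters' processing notes. In the table processed by the authors, values are on a log2 scale (base taken from the range, since it is not stated) with the same quantiles on every array.

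Signals were processed with neqc of limma 3.58.1 (R 4.3.3, offset 16, control signals estimated from the detection p-values). The platform table gave 1 symbol for 23978 probes and none for 1719. Probes detected at p under 0.01 on 2 or more of 9 arrays (12695) were fitted with 1 mean per group over all 9 arrays, and tested with limma's moderated test and Benjamini-Hochberg adjustment over all of them (threshold 0.05). Changes are differences of log2 means with SE and 95% intervals. Where a group was undetected on every array, or for Lefty1, Taf7l and Ets1 in ESC on some, the fold is a bound. Each undetected array is set there to its lowest detected signal, or to the probe's own if higher. Aldh1a2 is given as a log2 change only, because no such bound placed it higher in GSC. Gene lists used 1 probe per gene, the one with the highest mean.

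The members and lists were chosen with earlier results of these data known. All member probes are named, and so are, per list and comparison, the 2 largest called rises and falls. Cyp26a1, Aldh1a1, Aldh1a2, Aldh1a3, Rdh10, Dhrs3, Lrat, Rxrg, Rec8, Sycp3 and Dazl are always named. Genes of GSC 4 named beside Stra8 were chosen after their values were seen. Alternatives covered background correction, normalization, detection filter, probes per gene, groups in the fit, an intensity trend, a replicate block, GSC 1 and GSC 3 averaged, ESC averaged and each array left out. Leaving out GSC 1 and GSC 3 together was added after seeing the data. The method was tested on simulated data. The number of arrays limits the precision.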

Additional observations from a re-analysis of the deposited data

Results flagged for a closer look

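Among the 30 probes checked in the 4 GSC lines, 4 had 1 line far from the rest relative to the group's range. Chance flags about 1 in 20 such groups, and 6.29% of all tested probes passed the same limit. Of the 9 tested member probes 2 did. Stra8 stood high in GSC 4, at 6.84 against 4.58 to 4.91 in the other lines, and Rarg ILMN_2618068 stood high in GSC 1, at 7.06 against 6.49 to 6.57. Of the other genes named, Lamc1 was low in GSC 4, at 5.83 against 6.62 to 6.67, and Ets1 was high in GSC 1, at 8.93 against 8.60 to 8.65.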

How the results depend on the processing

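Of the 576 changes of member probes recomputed under alternatives, 529 kept their side of the threshold, 34 lost the call and 13 gained it, and no called change turned its sign. Crabp1 and Rarg ILMN_2618068 kept their calls against GSC throughout. The 34 losses were those of Rarg ILMN_3132660. The member count stayed at 2 to 4 for gPS against GSC and at 2 to 3 for ESC against GSC when each array was left out, and at 0 for gPS against ESC. Over all tested probes, requiring detection on all 9 arrays gave 4493 calls for gPS against GSC (6938 otherwise) and 4359 for ESC against GSC (6764 otherwise). For gPS against ESC, 144 probes were called, against 66 with median scaling, 50 with detection on all 9 arrays, 9 in a fit of these groups alone, 81 with GSC 1 and GSC 3 averaged, 10 with the ESC arrays averaged, 45 with GSC 1 and GSC 3 left out, and 10 to 289 with each array left out. The cause was not tested, apart from fewer probes or arrays entering some of these fits. Samples with the same line number showed no clear pairing (correlations of deviations from the group means between -0.18 and 0.08). With so few arrays per group, these correlations cannot decide whether lines were paired. The fit with the number as a replicate block gave 27 calls for gPS against ESC and, for Rxrb ILMN_2593038, a change of 0.53 in gPS against GSC (adjusted p = 0.0339). Signals near the array background limit Stra8, Rara, Rxra, Crabp1 in gPS and ESC, and the undetected members.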
